A study of Mus musculus with 4 samples.

Results

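The main clusters of replication-dependent histone genes of the mouse, historically named Hist1, lie on chromosome 13. They were taken here as every called region that overlapped chromosome 13 from 21.7 to 22.15 Mb (the first window) or from 23.4 to 23.9 Mb (the second window) on build mm9. This rule used positions only and found 134 H3K4me3 regions and 26 H3K27me3 regions, 160 of the 76945 regions in the 4 lists. The regions come from chromatin immunoprecipitation and sequencing of rosette stem cells, which are mouse pluripotent cells held between the naive and the primed state. They were derived from the embryonic stem cell lines CGR8 (strain 129/Ola) and R1 (strain 129). Both lines had been kept for 8 days on coated plates in N2B27 medium with the cytokine LIF, 2 µM IWP2, which blocks WNT secretion, and 1 µM PD325901, a MEK inhibitor. All 4 libraries share this culture, and no other culture was analysed here. There was a single library for every combination of line and mark, so a difference between CGR8 and R1 has no replicate check, and no test between the lines was made. Read totals are unknown. The state of the cells could not be checked against marker genes, because the regions were not assigned to genes.

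Replication-dependent histone genes supply the core histones H2A, H2B, H3 and H4 and the linker histone H1 that package newly copied DNA in S phase. They are short, mostly lack introns, exist in many near-identical copies, and give mRNAs that end in a stem-loop in place of a poly(A) tail. H3K4me3, trimethylation of lysine on the tail of H3, sits at promoters in use and at many held in reserve, and H3K27me3 is the mark of Polycomb repressive complex 2. Pluripotent cells in culture divide rapidly and make histones in large amounts.

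The names of the genes in these clusters were taken from the RefSeq gene table, which is on GRCm38.p6. It is another build than that of the region lists, so it was used for names and gene order only, and no region below is given a gene name. The table lists 52 protein-coding histone genes in the 2 clusters, with 6 for H1, 12 for H2A, 14 for H2B, 9 for H3 and 11 for H4. The first cluster runs from H2bc13 to H2bc11 and holds 23 of them, the second runs from H4c8 to H1f1 and holds 29. H1f6, a testis form of H1, is counted with them, and H4bc24 is counted as H2B by its older symbol in the table (Hist1h2br). Other genes lie among the histone genes. The first cluster holds 31 tRNA genes and 3 other protein-coding genes, Zfp184, Pom121l2 and Prss16, and the second holds Hfe, the gene of an iron homeostasis protein. Between the clusters the table lists 36 protein-coding Vmn1r genes, which encode vomeronasal receptors. Just before the second cluster come Abt1, Btn1a1 and Btn2a2, with 30 tRNA genes from Abt1 to its first histone gene. The windows may therefore hold promoters of several gene classes, and the H3K4me3 regions are not counts of histone genes.

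To show what the promoters of these clusters look like, the 250 bases before the start of 1 gene of each kind follow, 5′ to 3′, from the RefSeq promoter table (GRCm38.p6). The first gene of each kind in alphabetical order within the clusters was taken. For H3 the first one, H3c1, is not among the promoters used here, and H3c10, the next, was shown. Capitals mark each TATAAA (the TATA box) and each CCAAT (the CCAAT box), read on either strand, so that ATTGG is a CCAAT on the other strand.
H1f1: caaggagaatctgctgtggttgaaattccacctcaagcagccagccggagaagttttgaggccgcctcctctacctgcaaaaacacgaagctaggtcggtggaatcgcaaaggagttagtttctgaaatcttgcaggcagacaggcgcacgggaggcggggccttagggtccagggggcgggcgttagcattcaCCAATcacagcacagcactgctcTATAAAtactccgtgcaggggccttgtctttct
H2ac10: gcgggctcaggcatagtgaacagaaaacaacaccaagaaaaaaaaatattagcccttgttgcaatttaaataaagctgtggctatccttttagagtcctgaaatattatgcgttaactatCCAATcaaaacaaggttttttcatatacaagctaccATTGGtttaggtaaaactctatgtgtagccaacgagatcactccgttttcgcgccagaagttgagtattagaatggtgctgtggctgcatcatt
H2bc11: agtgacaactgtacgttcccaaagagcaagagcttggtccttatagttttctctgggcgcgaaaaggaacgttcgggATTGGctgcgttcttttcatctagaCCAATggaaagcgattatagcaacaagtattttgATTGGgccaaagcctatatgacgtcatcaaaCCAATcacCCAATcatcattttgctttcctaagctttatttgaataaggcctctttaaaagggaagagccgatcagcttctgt
H3c10: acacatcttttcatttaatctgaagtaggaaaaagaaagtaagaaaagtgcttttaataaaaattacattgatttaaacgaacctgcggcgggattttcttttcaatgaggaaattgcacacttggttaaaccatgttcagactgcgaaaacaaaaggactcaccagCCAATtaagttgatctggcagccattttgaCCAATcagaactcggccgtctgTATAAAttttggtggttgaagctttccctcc
H4c1: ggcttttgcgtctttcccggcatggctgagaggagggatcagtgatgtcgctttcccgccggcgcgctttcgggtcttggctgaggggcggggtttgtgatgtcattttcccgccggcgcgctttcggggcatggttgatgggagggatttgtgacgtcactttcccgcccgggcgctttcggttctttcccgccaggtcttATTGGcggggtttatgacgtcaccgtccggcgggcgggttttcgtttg

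H1f1 (a linker histone) has TATAAA beginning 33 bases before its start and H3c10 31 bases before it, while none of the H2A, H2B and H4 examples shown has this exact word. H4c1 has a CCAAT on the other strand 48 bases before its start. H2bc11 has 5 CCAAT words, and its 250 bases share 248 with the promoter of H2ac11 read on the other strand. Such back-to-back H2A and H2B genes share promoter bases in 9 pairs of these clusters, over 163 to 248 bases. Promoters were found for 49 of the 52 genes, with H2bc4, H3c1 and H3c7 not used here. CCAAT stood in all 38 promoters of H1, H2A, H2B and H3 genes and in 3 of the 11 of H4 genes (27.3%), against 33.8% of the 32851 promoters of the table. TATAAA stood in 24 of the 49 (49.0%), against 12.4% of the table. The octamer word ATTTGCAT, known from H2B promoters, stood in 4 of 13 H2B and 4 of 12 H2A promoters and in none of the others, against 1.6% of the table. Since paired H2A and H2B genes share most of these bases and both strands were read, the same word can count once for each gene of a pair, and the counts are not of separate sequences. All 3 words were searched on both strands, they do not overlap in the sequences shown, and a match describes the letters only.

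H3K4me3 regions were packed densely in both windows and almost absent between them, as the map of called regions shows. CGR8 had 68 regions in the 950 kb of the windows, 35 in the first and 33 in the second, and R1 had 66, 35 in the first and 31 in the second. The mean was 67.0 ± 1.41 (SD, n = 2 lines). The density was 7.16 regions per 100 kb in CGR8 and 6.95 in R1, against 0.819 and 0.799 on the rest of chromosome 13. This is a ratio of 8.74 in CGR8 and 8.70 in R1. In the 1250 kb between the windows lay 5 regions in CGR8 and 4 in R1. H3K4me3 covered 25.1% of the windows in CGR8 and 25.3% in R1, against 1.78% and 1.69% of the rest of the chromosome and 1.07% of the stretch between the windows in each line. With the higher-scoring part of each list alone (50%), the mean density ratio was 13.4.

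**Figure D1:**
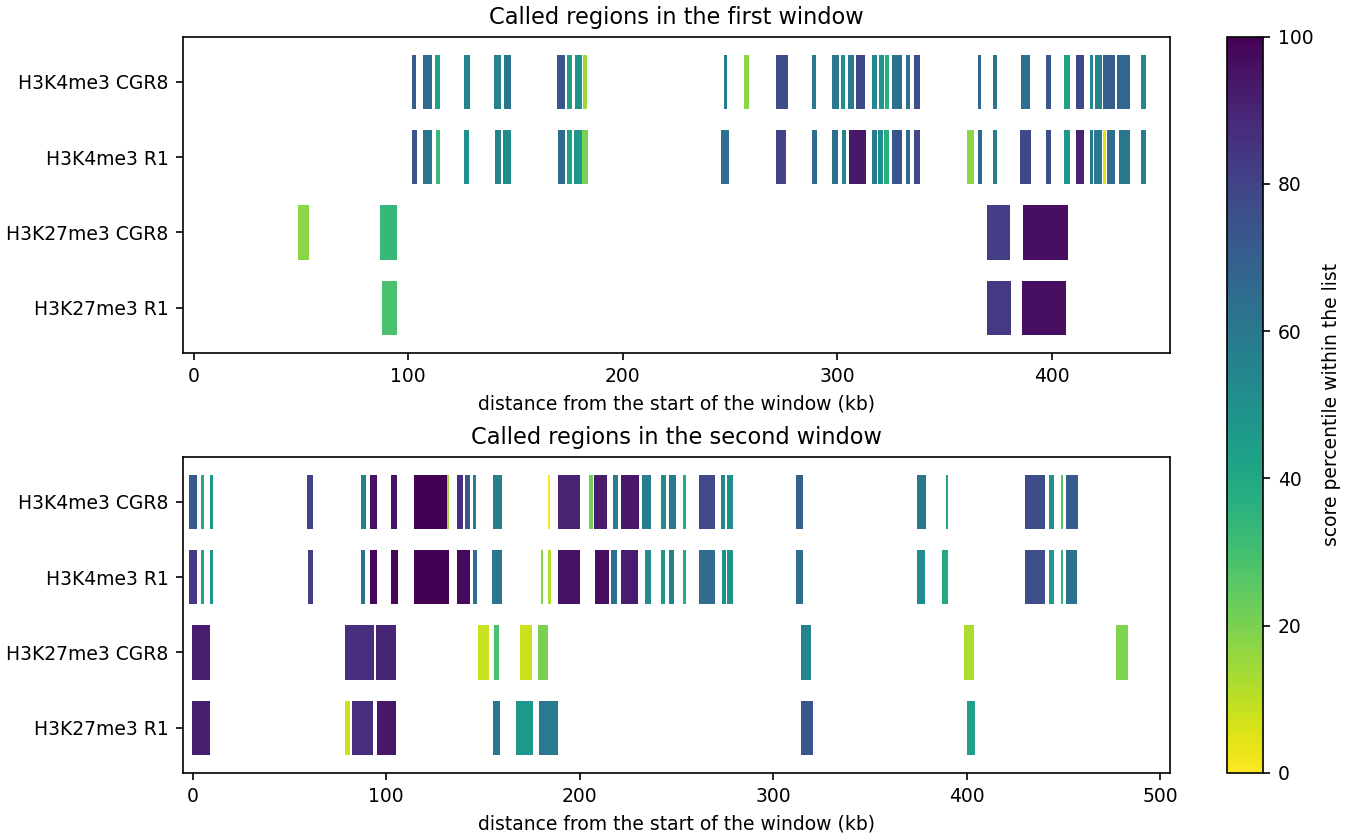
Called H3K4me3 and H3K27me3 regions of CGR8 and R1 along the first (upper panel) and second (lower panel) window. The horizontal axis is the distance from the window's start in kb, each bar is a region, and its colour is the percentile of its score within its list. The 35 H3K4me3 regions of each line in the first window leave its opening stretch empty, and the widest region, 17 kb in CGR8 and 18 kb in R1, lies in the second window.

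A stretch of 450 kb, the length of the first window, was moved over the rest of the genome in steps of 50 kb to see how usual such packing is. The median position held 2 H3K4me3 regions in each line. As many as the 35 of the first window were met at 22 separate places in CGR8 and 18 in R1. For the second window, with a stretch of 500 kb, 42 places in CGR8 held at least its 33 regions and 49 in R1 at least its 31. Fewer places matched the cover of the second window. Its 135 kb of H3K4me3 in each line was reached at 3 other places in CGR8, where the highest cover was 142.8 kb, and at 1 in R1, with 140.2 kb. The 103.8 kb (CGR8) and 105.8 kb (R1) of the first window were reached at 8 and 7 places. The windows had been drawn around the clusters, while the moved stretches were not fitted to any cluster.

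H3K4me3 regions of the windows had a larger median width than those elsewhere. It was 2800 bp in each line, against 1800 bp on the rest of chromosome 13 and 2000 bp in the rest of each list. In the first window the median was 2600 bp and in the second 3200 bp, again in each line. A width of at least 5 kb was reached by 10 of the 68 regions of CGR8 and 10 of the 66 of R1, or 14.7% and 15.2%, where the whole lists had 5.77% and 4.96%. Of these, 7 in CGR8 and 8 in R1 lay in the second window. The widths are multiples of 200 bp, and calls closer together than the smallest gap of a list are a single region.

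The scores of these regions stood only a little above the middle of the lists. The score is the authors' deposited value per region and rises with width. It is given below as deposited and in ratios between the lines. It is also given as a percentile, the share of regions of the same list that score no higher. The median score percentile was 59.2 in CGR8 and 60.2 in R1, a mean of 59.7 ± 0.737 (SD, n = 2 lines), while that of the rest of chromosome 13 was 47.8 and 48.7. Divided by width, the median percentile was 50.2 and 51.0, near the middle of the lists, whereas the median width percentile was 75.5 and 77.1. The highest-scoring 10% of the lists held 6 of the 68 regions in CGR8 (8.82%) and 9 of the 66 in R1 (13.6%). Among the higher-scoring part of each list alone (50%), the mean of the median percentiles was 28.6, counted within that part.

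**Figure D2:**
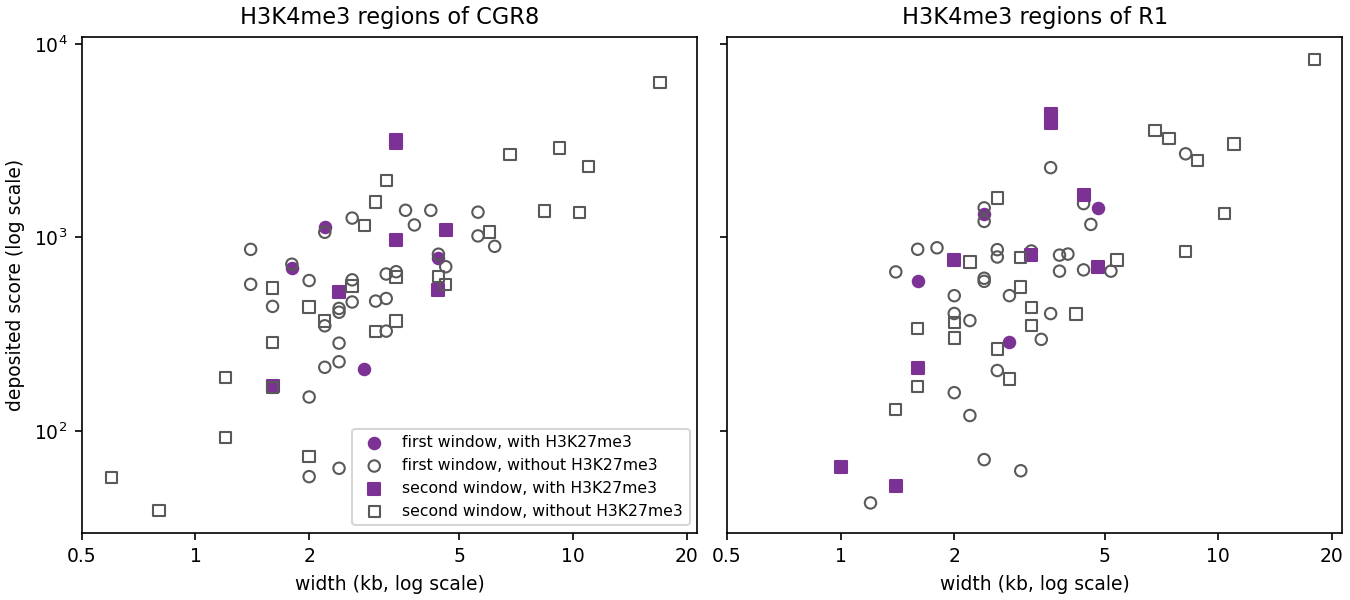
Width (horizontal axis, kb, log scale) and deposited score (vertical axis, log scale) of each H3K4me3 region of the windows in CGR8 (left) and R1 (right), with filled symbols for regions that overlap H3K27me3. The region of 17 kb in CGR8 and 18 kb in R1 has the highest score of each panel and no H3K27me3, and the filled squares of 3.4 kb in CGR8 and 3.6 kb in R1 with scores from 3083 to 4345 are the regions before it that overlap H3K27me3.

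The second window held the strongest region of the set. In CGR8 it ran from 23514201 to 23531200, 17 kb wide, with a score of 6338 that ranked 67 of 25241. In R1 it ran from 23514401 to 23532400, 18 kb wide, with a score of 8352 that ranked 9 of 24618. By width it ranked 7 in CGR8 and 2 in R1, so it is among the widest H3K4me3 regions of either genome-wide list. Before it lay shorter regions of high score. The region from 23491801 to 23495200 in CGR8 had a score of 3180 and that of R1 from 23491601 to 23495200 a score of 4345, at percentiles 95.2 and 98.8. The next, from 23502401 to 23505800 in CGR8 and to 23506000 in R1, had scores of 3083 and 3918, at percentiles 94.8 and 98.1. Both are 3.4 kb wide in CGR8 and 3.6 kb in R1, and their score per kb stood at percentiles 96.6 and 95.9 in CGR8 and 99.6 and 99.1 in R1.

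Further wide regions followed in the same order in both lines. The region from 23589001 to 23600000 had identical bounds in both lines, a width of 11 kb and scores of 2335 in CGR8 and 3039 in R1. That from 23621401 to 23630600 in CGR8 (9.2 kb, score 2906) matched 23621601 to 23630400 in R1 (8.8 kb, score 2500). Between these lay a region of 6.8 kb in CGR8, from 23607401 to 23614200 with a score of 2682, and of 7.4 kb in R1, from 23607801 to 23615200 with a score of 3246. Near the end of the second window, a region of 10.4 kb with the same bounds in both lines, 23830001 to 23840400, reached scores of 1344 and 1329. Its score per kb was at percentile 43.7 in CGR8 and 41.2 in R1, below the middle of each list. The region of 8.4 kb from 23661601 to 23670000 in CGR8 and of 8.2 kb in R1, to 23669800, scored 1374 and 846.

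The first window had narrower regions and a smaller range of scores, from 57.9 to 1383 in CGR8 and from 42.3 to 2710 in R1. None of its 35 regions in CGR8 and 2 in R1 stood in the highest-scoring 10%. The highest score of CGR8 was that of 22111401 to 22115000 (1383), which had the same bounds and a score of 2298 in R1. The region from 21971401 to 21977000 in CGR8 scored 1352 and its R1 counterpart, from 21971601 to 21976000, 1497. The region that begins at 22036001 scored 1260 in CGR8 and 1423 in R1. Before the widest gap of this window, 21869401 to 21873200 scored 1161 in CGR8, and its R1 counterpart from 21870001 scored 851. The widest CGR8 region of the first window ran from 22130401 to 22136600 (6.2 kb, score 900), with an R1 counterpart of 5.2 kb that scored 670.

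Neighbouring H3K4me3 regions lay a few kb apart. The median gap between neighbours was 3.0 kb in each line, against 41.9 kb in CGR8 and 44.1 kb in R1 on the rest of chromosome 13. In the first window it was 2.8 kb in CGR8 and 2.4 kb in R1, and in the second 3.7 kb and 4.0 kb. Gaps of at most 2 kb made up 26 of 66 in CGR8 (39.4%) and 20 of 64 in R1 (31.2%), where the rest of the chromosome had 5.44% and 6.32%. The widest gaps split each window into parts. In the first window, no H3K4me3 was called between 21883400 and 21947201 in CGR8 (63.8 kb) or between 21883600 and 21945801 in R1 (62.2 kb). In the second, the widest gap ran from 23715200 to 23774401 in each line (59.2 kb). With the higher-scoring part of each list alone (50%), the mean of the median gaps was 6250 bp.

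Joining neighbouring regions over growing gaps measured how closely the called regions were spaced, as the plot of stretches left shows. Joining gaps of up to 1 kb left 26 separate stretches of 35 in the first window in each line (74.3%), against 98.0% and 96.9% on the rest of chromosome 13 in CGR8 and R1. In the second window it left 29 of 33 in CGR8 and 30 of 31 in R1. At 3 kb, 16 and 14 stretches were left in the first window and 18 and 20 in the second, while on the rest of the chromosome CGR8 kept 900 stretches from 977 regions (92.1%) and R1 871 from 953 (91.4%). At 10 kb, a single stretch of the second window took in 13 regions in each line and reached 95.8 kb in CGR8 and 99.4 kb in R1.

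**Figure D3:**
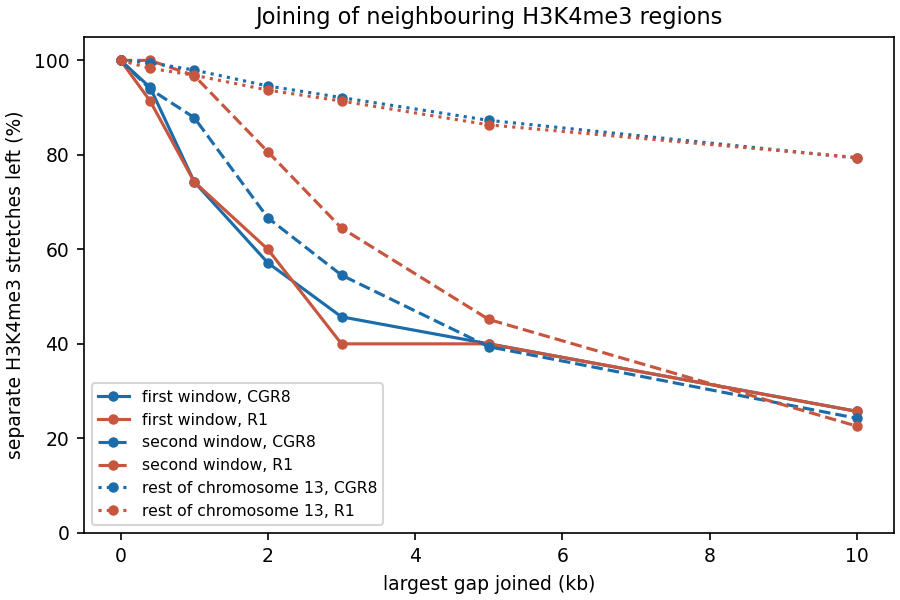
Share of separate H3K4me3 stretches left (vertical axis, percent of the regions called) when gaps up to the length on the horizontal axis (kb) are joined, for both windows and the rest of chromosome 13 in CGR8 and R1. At 10 kb between 22.6% and 25.7% are left in the windows and 79.3% and 79.4% elsewhere on the chromosome.

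The lines had nearly the same H3K4me3 regions here. In CGR8 66 of 68 (97.1%) overlapped a region of R1, and in R1 64 of 66 (97.0%) overlapped a region of CGR8, where the whole lists had 89.8% and 92.6%. The comparison with the whole lists is not like for like, since 1 bp of overlap was enough. Regions of the windows were wider (median 2800 bp against 2000 bp in the rest of each list), more closely packed and a little higher in score. Laid over each other, the lists gave 67 stretches, of which 63 held regions of both lines and 59 held exactly 1 of each. The regions of a single line were weak. CGR8 alone had 21956601 to 21959000 (2.4 kb, score 64.0, percentile 17.5) and 23605001 to 23607000 (2.0 kb, score 73.8, percentile 21.5). R1 alone had 22060601 to 22063600 (3.0 kb, score 62.1, percentile 17.0) and 23580001 to 23581000 (1.0 kb, score 65.0, percentile 18.1). Absence from a list means only that nothing was called there.

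Merging of neighbouring regions differed between the lines at 4 stretches. A region of R1 joined 2 of CGR8 in 3 cases, 4.55% of its 66, and a region of CGR8 joined 2 of R1 in 1 case, 1.47% of its 68. The whole lists had 0.849% for R1 and 1.24% for CGR8. These shares are not like for like, because close neighbours were commoner in the windows. Gaps of at most 2 kb were 39.4% in CGR8 and 31.2% in R1 there, against 7.61% and 7.22% in the rest of the lists. The R1 region from 22005401 to 22013600 (8.2 kb, score 2710) overlapped the CGR8 regions from 22005001 to 22007600 and from 22008601 to 22012800. These scored 604 and 1381. The R1 region from 23536401 to 23543200 (6.8 kb, score 3575) overlapped the CGR8 regions from 23536601 to 23539800 and from 23540601 to 23543400. These scored 1966 and 1152. The 18 kb region of R1 also covered a weak CGR8 region of 0.6 kb, from 23531601 to 23532200, with a score of 57.3. In the other direction, the CGR8 region from 22124001 to 22129600 (score 1019) took in a weak R1 region to 22125200 (score 42.3) and a stronger one from 22125601 (score 821). Of the mean of 2 joins per line, 1 was left when the lower-scoring part of each list (50%) was dropped, and without R1 the number is the 1 join of CGR8.

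Score differences between the lines were moderate and ran in blocks along the windows. Of the 63 H3K4me3 stretches found in both lines, 40 scored higher in R1 and 23 in CGR8, with a median log2 ratio (R1 over CGR8) of 0.20 and a range from -0.83 to 0.85. Over the 22438 such stretches of the genome, 45.3% scored higher in R1, the median was -0.03 and the middle range from the 10th to the 90th percentile was -0.51 to 0.42. On the rest of chromosome 13 the median was 0.00. Neighbours often shared a side. The longest run higher in R1 opened the second window, with 15 stretches found in both lines from 23397801 to 23619600 and a median log2 ratio of 0.38. The single-line regions from 23580001 (R1) and 23605001 (CGR8) lie in the same span and have no ratio. By score per covered kb, 13 of the 15 were higher in R1. The next stretches were lower in R1, first 4 from 23621401 to 23649600 (median -0.25) and then, after 1 with a ratio of 0.02, 8 from 23661601 to 23845400 (median -0.26). Per covered kb, only 2 of these 4 and 7 of these 8 were lower in R1. In the first window, 3 stretches from 21806801 to 21828800 (median -0.32) and 4 from 21844201 to 21881000 (median -0.30) were lower in R1. A run of 14 higher in R1 followed from 21881201 to 22067600 (median 0.37), and another of 6 from 22085401 to 22123600 (median 0.55). Per covered kb, 12 of the 14 and all 6 were higher in R1. The span of the 14 also holds the single-line regions from 21956601 (CGR8) and 22060601 (R1). Then came 2 stretches lower in R1, from 22124001 to 22136600. These runs were noticed in the same values, with 1 library per line, and were not tested. Runs were not measured outside the windows, so the blocks are not shown to be particular to them.

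**Figure D4:**
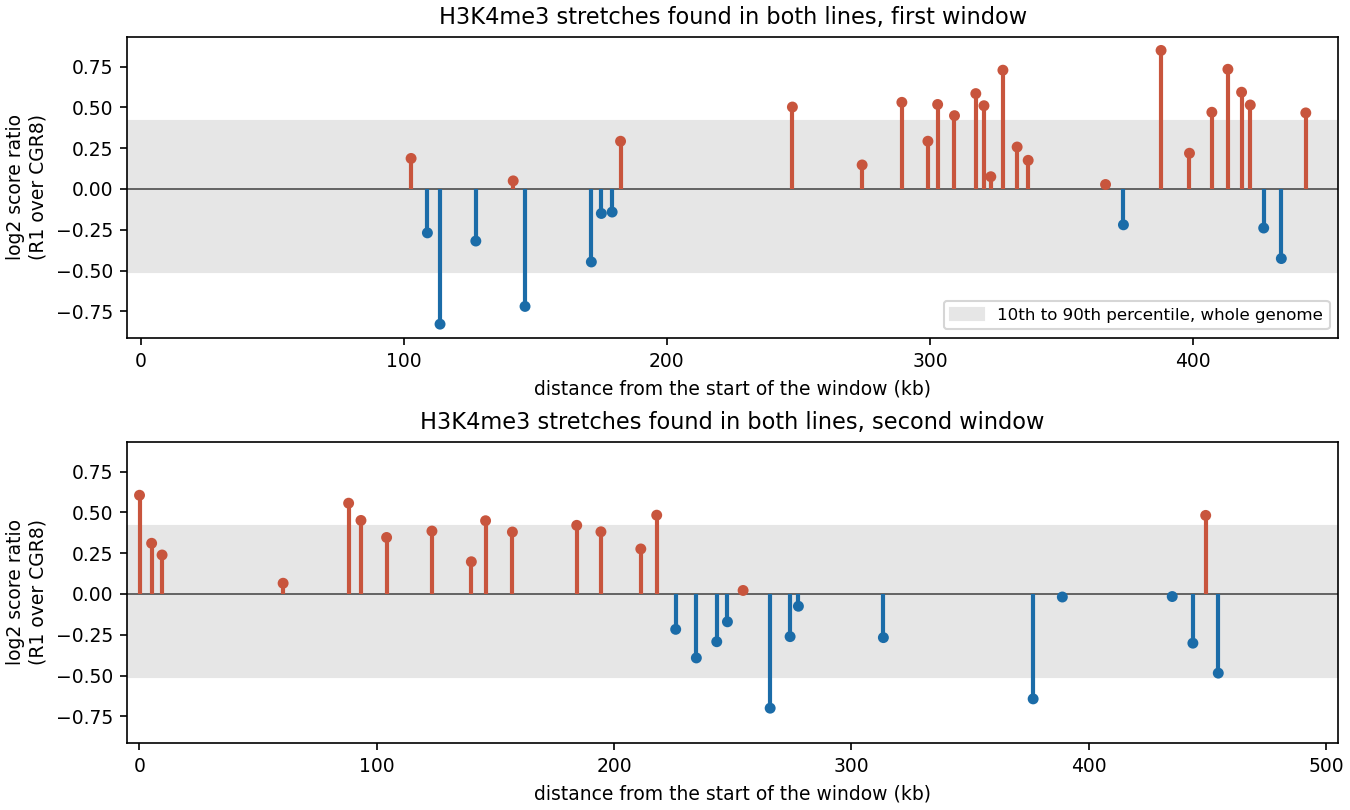
log2 ratio of the summed H3K4me3 score (R1 over CGR8, vertical axis) for each stretch found in both lines, against the distance from the start of the window in kb, with red for higher in R1 and blue for higher in CGR8. The grey band runs from -0.51 to 0.42, the 10th to 90th percentile over the genome, and the first 15 stretches of the second window all lie above 0.

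H3K27me3 had fewer regions in the windows than H3K4me3 but was denser there than on the rest of chromosome 13. CGR8 had 14 regions, 4 in the first window and 10 in the second, and R1 had 12, 3 in the first and 9 in the second. This is 1.47 regions per 100 kb in CGR8 and 1.26 in R1, against 0.541 and 0.406 on the rest of the chromosome. They covered 12.1% of the windows in CGR8 and 10.9% in R1, with a mean cover of 11.5% ± 0.834 (SD, n = 2 lines), against 4.87% and 3.30% of the rest. In CGR8, 11 of the 14 overlapped a region of R1 (78.6%), and all 12 of R1 overlapped one of CGR8, where the whole lists had 67.1% and 81.1%. H3K4me3 overlapped 7 of the 14 in CGR8 and 8 of the 12 in R1 (66.7%), where the whole lists had 41.3% and 48.8%. The number of members is small beside these shares. They are also not like for like, because both marks covered more of the windows than of the rest of the genome. H3K4me3 covered 25.1% of the windows in CGR8 and 25.3% in R1, against 2.23% and 2.10% of the rest.

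The strongest H3K27me3 region of the windows was also the widest. It ran from 22086601 to 22107600 in CGR8 (21.0 kb, score 959, percentile 96.1) and from 22086201 to 22106800 in R1 (20.6 kb, score 1012, percentile 96.6), and it held or met 3 H3K4me3 regions in each line. Just before it, a region of 10.8 kb from 22069801 in CGR8 and of 11.6 kb from 22069601 in R1 scored 343 and 354. At the start of the second window, 23399601 to 23408800 had the same bounds in both lines, 9.2 kb and scores of 651 and 598. H3K4me3 covered 47.8% of it in each line.

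H3K27me3 overlapped the 2 high-scoring H3K4me3 regions that precede the widest one in the second window. In CGR8 it ran from 23478801 to 23493600 (14.8 kb, score 435) and from 23494801 to 23504800 (10.0 kb, score 530), with a gap of 1.2 kb. In R1 it ran from 23482201 to 23493000 (10.8 kb, score 444) and from 23495001 to 23504800 (9.8 kb, score 713), with a gap of 2.0 kb, after a weak region from 23478801 to 23481200 (score 63.5). The gap fell inside the H3K4me3 region of score 3180 in CGR8 and 4345 in R1, of which 64.7% and 44.4% lay under H3K27me3. The H3K4me3 region of score 3083 and 3918 at the other end lay under it for 70.6% and 66.7%. The widest H3K4me3 region, which begins after these H3K27me3 calls end at 23504800 in each line, overlapped none.

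The other H3K27me3 regions scored from 75.9 to 143 in CGR8 and, where both lines had one, higher in R1 except at 1 place. The region from 23714601 to 23719800 in CGR8 scored 143 (percentile 54.4), and that from 23714401 to 23720800 in R1 238 (percentile 73.7). The region from 23555601 to 23558400 in CGR8, wholly under H3K4me3, scored 95.9 (percentile 29.2), and that from 23555001 to 23558600 in R1 148 (percentile 59.8). The region from 23578401 to 23583600 in CGR8 scored 86.0 and met no H3K4me3, while that from 23578801 to 23588800 in R1 scored 145 and met 2 weak H3K4me3 regions. Those from 23569401 to 23575200 in CGR8 and from 23567201 to 23576000 in R1 scored 76.1 and 110, and those from 23798401 and from 23800201 scored 79.3 and 102. The exception, from 21787001 in CGR8 and 21787801 in R1, scored 101 and 81.0. CGR8 alone had 21748601 to 21753800 (score 83.6), 23547201 to 23553000 (score 75.9) and 23877201 to 23883600 (score 85.1), the strongest of them at percentile 19.2 of its list. Of the 11 H3K27me3 stretches found in both lines, R1 had the higher score in 9, and the median log2 ratio was 0.37. Over the genome 26.2% of such stretches scored higher in R1 and the median was -0.25. Divided by width, the R1 regions from 22069601, 23567201 and 23578801 were lower than their CGR8 counterparts. Their scores per kb were 30.5, 12.5 and 14.5, against 31.8, 13.1 and 16.5 in CGR8. The others of the 9 stayed higher in R1. The difference was not tested.

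Few of the H3K4me3 regions of the windows met H3K27me3. In CGR8 11 of 68 overlapped it (16.2%) and in R1 13 of 66 (19.7%), with a mean share of 17.9% ± 2.49 (SD, n = 2 lines), where the whole lists had 28.2% and 29.1%. Of these, 4 of 11 in CGR8 and 6 of 13 in R1 lay wholly under H3K27me3. The median score was 785 with H3K27me3 and 572 without it in CGR8, and 768 and 669 in R1, with a range from 171 to 3180 for those with it in CGR8 and from 51.9 to 4345 in R1. The median width, with which the score rises, was 3400 bp with H3K27me3 and 2600 bp without it in CGR8, and 2800 bp for both in R1. By window, the regions with H3K27me3 were 4 of 35 in each line in the first, and 7 of 33 in CGR8 and 9 of 31 in R1 in the second. The shares were not tested.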

How the data were processed

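The data are ChIP-seq of H3K4me3 and H3K27me3 in rosette stem cells from CGR8 and R1, with 1 library per line and mark. The authors deposited 1 list of regions per library, with a score per region that has no stated unit or formula. Bowtie2 2.0.2, SICER 1.1 and bedtools 2.20.1 are named, with build mm9, per the submitters' processing notes. Their settings, the control library and the handling of reads that match several places are unknown (not given in the sources used here). Histone and tRNA genes exist in near-identical copies, so calls and scores over them are uncertain to that extent, which was not tested. Read totals are unknown, so no interval is given. Regions lie on a grid of 200 bp, and the smallest gap is 400 bp for H3K4me3 and 800 bp for H3K27me3, so closer calls are a single region.

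Positions were counted from 1. A region belonged to a window, or was shared, when it overlapped by at least 1 bp, and stretches are the union of the regions of both lines. Groups were the marks, with the line as replicate. Regions named by position were the 5 of highest score and the 5 widest of each window and line, those of a single line or joining several of the other, every H3K27me3 region and the widest gaps, and from the highest-scoring and widest sets the text gives a selection. The gene symbols were those of histone genes and their neighbours in the table. Promoters were shown for the first symbol of each kind within the clusters, so that H2ac1 and H2bc1, which lie beyond them, were not taken. The members and lists were chosen with earlier results of these data known. 8 of the measures were tested on 20 simulated data sets placed in the same windows, and all 160 planted values were returned. Their widths, gaps and scores were random and not taken from the data. They did not reach the widest regions and gaps seen here, so they check the computation only. Alternatives were regions wholly inside a window, the higher-scoring part of each list (50%), lists of equal length, regions less than 1000 bp apart merged, an overlap of at least 50%, windows narrowed by 25 kb at each end, and leaving out either line. Python 3.11.15, numpy 2.4.6, pandas 2.3.3 and matplotlib 3.10.9 were used.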

Additional observations from a re-analysis of the deposited data

How the results depend on the processing

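All values below are means over the 2 lines. With the higher-scoring part of each list (50%), the density ratio was 13.4 (8.72 as reported), the median width 3400 bp (2800 bp), the median score percentile 28.6 (59.7), the median gap 6250 bp (3000 bp), the number of joins 1 (2) and the H3K27me3 cover 8.01% (11.5%). Fewer regions and a percentile counted within the part kept enter these values by construction. With regions less than 1000 bp apart merged, the density ratio was 7.72, the width 3200 bp, the percentile 61.1, the gap 4250 bp, the shared regions 97.4% (97.0%) and the H3K4me3 regions with H3K27me3 20.7% (17.9%). With regions wholly inside a window, the density ratio was 8.58, the gap 3100 bp and the H3K27me3 cover 10.6%. With windows narrowed by 25 kb, the density ratio was 8.90, the gap 3150 bp and the shared regions 96.7%. With lists of equal length, the density ratio was 8.78, the shared regions 96.2% and the H3K27me3 cover 10.6%. With an overlap of at least 50%, 95.5% were shared and 14.9% met H3K27me3. Leaving out either line gave 1 to 3 joins. Of 66 alternative values 24 moved by more than the SD over the lines or, for counts, by over 1.5 times. That SD was 0 for the median width and the median gap, so any change in them counts as moved. Leaving out a line shifts a mean over 2 lines by less than their SD by construction. Outside the counts, those values could not have counted as moved and say nothing about stability. The number of H3K4me3 stretches higher in R1, 40 by score, was 37 by score percentile and 39 by score per covered kb, where the run of 4 stretches lower in R1 from 23621401 kept 2 on that side, alternatives chosen after the data were seen. Each line has both marks and so pairs them. No paired analysis was made, because no result comes from a test and there was no fit to hold a block. Read depth is unknown, and its part in the regions called in a single line was not tested.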

Other observations

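The order of gene classes in the RefSeq table and the order of score runs can be set side by side, although the table is on GRCm38.p6 and the regions on mm9, so that no run was placed on a gene. In the table, 2 tRNA genes come before the first cluster, followed by 18 histone genes from H2bc13 to H4bc24, then 31 tRNA genes with Zfp184, Pom121l2 and Prss16, then 5 histone genes from H2ac12 to H2bc11, and then the tRNA gene n-TSgct5. The H3K4me3 stretches of the first window opened with 1 higher in R1 (log2 ratio 0.19). After it came runs lower in R1 (3 and 4 stretches, parted by 1 at 0.05), runs higher in R1 (14 and 6, parted by 1 at -0.22), 2 lower in R1 and 1 higher (0.47). Before the second cluster the table lists Abt1, Btn1a1, Btn2a2 and, after Zfp322a, 36 tRNA genes. The 29 histone genes from H4c8 to H1f1 follow, with Hfe among them. The stretches of the second window opened with 15 higher in R1, and of the 15 that followed 13 were lower in R1. Whether the runs fall on those gene classes was not tested, and an annotation on mm9 would show it.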
